A study of Homo sapiens with 6 samples.

Results

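The mucins described here are 10 genes: the secreted, gel-forming MUC2, MUC5AC, MUC5B and MUC6 and the membrane-bound MUC1, MUC4, MUC12, MUC13, MUC17 and MUC20. They were chosen by symbol, as every probe set whose platform annotation names exactly 1 of these genes, which gave 28 of 54613 probe sets. At the level of genes they are 10 of 19775. Expression was compared between 2 subclones of DLD-1, a human colorectal cancer cell line: DLD-1Δα-Cat (n = 3 arrays) and DLD-1α-Cat (n = 3 arrays). Both were untreated and kept for 96 h in a gel of type I collagen at 1 mg/ml. The labels spell out neither Δα-Cat nor how the subclones were made. They also do not say whether the arrays within a group are separate cultures, so each p-value rests on a spread between arrays that may be technical.

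Mucins are large proteins with long repeats rich in serine and threonine, to which dense O-linked sugar chains are attached. Gel-forming mucins are packed into granules by goblet cells and swell into mucus after release; MUC2 is the main one of the healthy colon. Membrane mucins stay anchored at the cell surface, form the glycocalyx of absorptive cells, and some of them signal through their cytoplasmic tails. Each array gives a log2 intensity per probe set, a group of short probes read together. All differences are on that log2 scale, where 1 is a doubling, and are positive where DLD-1Δα-Cat was higher. The brightness of a probe set also depends on its probes, so levels of different mucins are not ranked against each other.

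The arrays gave values between 1.95 and 15.15, and 3 arrays per subclone limit the precision. CTNNA1, the gene of αE-catenin, was read as a check of the labels and differed by -1.52 (SE 0.119, limma adjusted p = 0.000838). Of 10 markers of colon epithelium 9 lay above the median level of all genes, whereas 0 of 10 fibroblast, 0 of 8 endothelial and 0 of 8 leukocyte markers did. The mean level of each list per array ran from 11.42 to 11.66 in DLD-1Δα-Cat against 11.13 to 11.26 for colon epithelium, 4.76 to 4.84 against 4.73 to 5.07 for fibroblasts, 5.42 to 5.49 against 5.47 to 5.61 for endothelium and 4.54 to 4.58 against 4.69 to 4.73 for leukocytes. Among these markers KRT20 (4.89) and LYZ (1.54) rose, and CDX1 (-1.09) and CD14 (-1.17) fell. The colon epithelium list had 5 positive and 5 negative differences, with a median of 0.005. Replicate 1 of DLD-1α-Cat stood apart: its array weight was 0.431, below the 0.688 to 1.69 of the rest, and it was the highest array in 28.2% of all probe sets and in 36.6% of those under the median level. As a sign of RNA quality, the β-actin control probe sets at the 3' end were compared with those at the 5' end. Their log2 ratio was 5.20 ± 0.159 (SD, n = 3) for the first subclone and 4.69 ± 0.291 (SD, n = 3) for the second, without overlap (exact permutation test, two-sided, p = 0.1, the smallest that 3 against 3 allow). The same ratio for GAPDH was 0.75 against 0.66 and overlapped (exact permutation test, two-sided, p = 0.4). What part either has in the results was not tested beyond the fits without that array and with the β-actin ratio as a covariate. Since that ratio did not overlap between the subclones, the covariate fit cannot separate the ratio from the subclone. A call lost in it therefore does not tell which of them the gene goes with.

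Among the mucin genes MUC1 rose in DLD-1Δα-Cat and no other member passed the test. With each gene read at its brightest probe set, 1 of 10 was called higher and 0 lower, beside 3.84% higher and 1.67% lower of all genes (limma, Benjamini-Hochberg adjustment over all genes, threshold 0.05). The count at an unadjusted p under 0.05 was 2 of 10, MUC1 and MUC13, beside 20.8% of all genes. The 10 differences ran from -0.34 to 1.12 with a median of -0.14, against a median of -0.03 over all genes, and 8 of them were negative. For 3 of 10 genes (MUC1, MUC12 and MUC13) the 2 sets of arrays were fully apart, beside 27.2% of all genes, and so they were for 7 of 28 probe sets, beside 22.1% of all probe sets. With every probe set tested on its own, over all 54613, 0 of the 28 passed in either direction by limma, beside 2.45% of all probe sets (1.72% higher and 0.729% lower). The count was also 0 without moderation of the variance, and 5 of 28 had an unadjusted p under 0.05, beside 15.9% of all probe sets. The 2 brighter MUC1 probe sets stood just above the threshold there. Once the replicate number was a block, 2 of the 28 were called higher, both of MUC1, and 0 lower, beside 2.37% of all probe sets (1.71% higher and 0.654% lower). In bulk RNA a smaller number of cells that express a gene and less RNA per cell cannot be told apart.

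**Figure D1:**
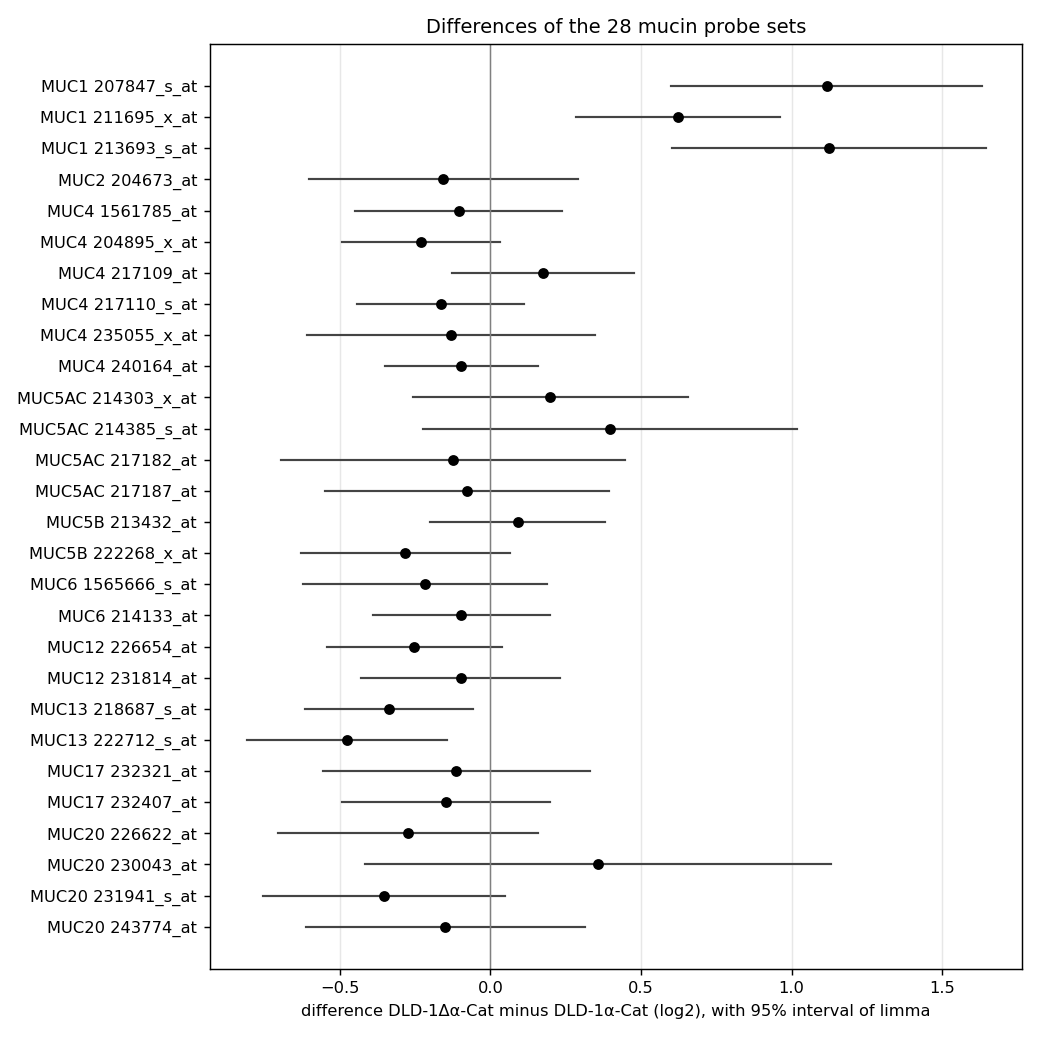
Difference between the subclones (log2, horizontal axis, positive where DLD-1Δα-Cat was higher) for each of the 28 mucin probe sets (rows), with the 95% interval of limma in the fit over all probe sets. The 3 probe sets of MUC1 lie at 0.62 to 1.12, both of MUC13 lie at -0.48 and -0.34, and the intervals of all other probe sets include 0.

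The stretch of DNA before the start of MUC1 is shown because MUC1 was the one mucin called, and that of MUC13 because it was the most negative of the members. Each is the run of 250 bases upstream of an annotated start, 5′ to 3′ on the gene's strand, from RefSeq (GRCh38.p14). MUC1 is on the minus strand (chr1:155192916-155193165), as is MUC13 (chr3:124934752-124935001). Capitals mark every match on either strand, overlapping matches included, to 2 motifs. The first is the TATA box, searched as TATAAA. The second is the GC box, the core of many Sp1 sites, searched as GGGCGG.
MUC1: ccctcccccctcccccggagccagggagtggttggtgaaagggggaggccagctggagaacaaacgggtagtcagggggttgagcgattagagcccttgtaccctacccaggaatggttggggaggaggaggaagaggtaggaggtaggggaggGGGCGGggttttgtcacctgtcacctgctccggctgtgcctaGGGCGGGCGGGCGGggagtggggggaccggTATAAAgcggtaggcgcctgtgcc
MUC13: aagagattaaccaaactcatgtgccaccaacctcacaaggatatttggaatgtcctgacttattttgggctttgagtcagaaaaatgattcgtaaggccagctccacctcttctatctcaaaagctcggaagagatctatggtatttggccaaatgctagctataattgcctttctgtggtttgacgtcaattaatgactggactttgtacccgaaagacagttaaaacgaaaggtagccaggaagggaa
The MUC1 window held 1 TATA box and 4 GC boxes, 3 of which overlap in a single run, and 66% of its bases were G or C. The MUC13 window held 0 of either motif and had 41.6% G or C, against a median of 58% over 35116 windows of the same length. Among those windows 10.7% held a TATA box and 42.6% a GC box. Of the 10 members 6 matched the promoter table: besides these, MUC2 and MUC17 held 0 of either motif, MUC4 held 1 GC box and MUC12 held 1 TATA box. MUC5AC, MUC5B, MUC6 and MUC20 did not match. A match of letters is a description of the window and was not tied to any measurement here.

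MUC1, a membrane mucin of most glandular epithelia whose cytoplasmic tail binds β-catenin and receptor kinases, was read by 3 probe sets. The brightest, 213693_s_at, stood at 9.46, 9.62 and 9.17 in replicates 1, 2 and 3 of DLD-1Δα-Cat and at 7.95, 8.76 and 8.17 in those of DLD-1α-Cat. Every DLD-1Δα-Cat array was above every DLD-1α-Cat array. The group levels were 9.42 ± 0.227 and 8.30 ± 0.418 (SD, n = 3 each), a difference of 1.12 (SE 0.219, 95% interval 0.61 to 1.64) or 2.18-fold, with a limma adjusted p of 0.0305 over all genes. Probe set 207847_s_at read 8.13, 8.56 and 8.21 against 6.72, 7.49 and 7.34, a difference of 1.12. The third, 211695_x_at, read 7.91, 7.86 and 7.88 against 7.56, 7.11 and 7.12, a smaller difference of 0.62. The suffix _x_at marks a set with probes that may also bind other transcripts. On both of these sets, too, the 2 subclones were apart. Replicate 1 of DLD-1α-Cat was the lowest of its group on the first 2 sets and the highest on the third.

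The call of MUC1 was close to the threshold. Tested among all probe sets, its 3 sets had limma adjusted p = 0.0505 (213693_s_at), 0.0502 (207847_s_at) and 0.0822 (211695_x_at), so none passed. With the replicate number as a block these became 0.0411, 0.0322 and 0.0856. In the fit over genes, MUC1 stayed above 0 in each run that left out an array, between 0.95 and 1.36, but passed only without replicate 2 of DLD-1α-Cat (adjusted p = 0.00900). Without replicate 1, 2 or 3 of DLD-1Δα-Cat the adjusted p was 0.0915, 0.112 and 0.0555, and without replicate 1 or 3 of DLD-1α-Cat 0.0616 and 0.127. The mean of the 3 probe sets differed by 0.95 (adjusted p = 0.00467). With the β-actin ratio as a covariate the difference was 0.76 and the adjusted p 0.62. In that fit 0.425% of all genes were called (0.293% higher and 0.131% lower), and it cannot separate the ratio from the subclone. Without moderation of the variance the adjusted p was 0.177.

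**Figure D2:**
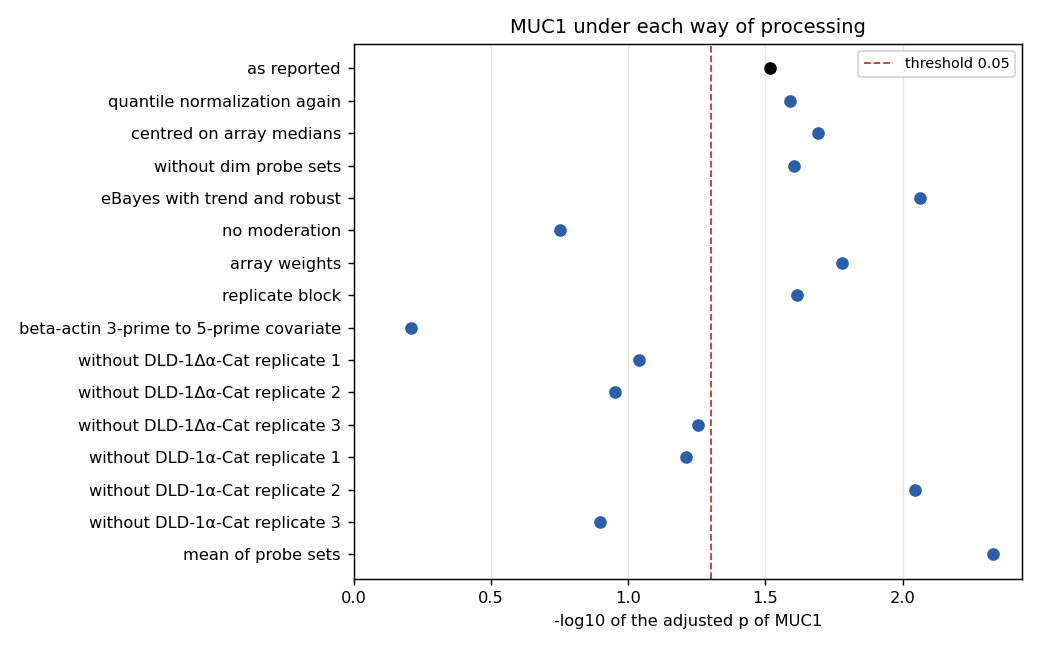
Strength of the MUC1 call (horizontal axis, -log10 of the limma adjusted p over all genes, larger is stronger) under each way of processing (rows), with the threshold of 0.05 dashed. The call as reported, at 0.0305, lies right of the line, and 5 of the 6 runs without an array, the fit without moderation and the fit with the β-actin covariate lie left of it.

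The other membrane mucins that read above the median level of all genes, MUC13 and MUC20, had negative differences at their brightest probe sets and did not pass. MUC13, a membrane mucin abundant on colonic epithelium, was read by 2 probe sets. Set 218687_s_at stood at 9.35, 9.34 and 9.53 in DLD-1Δα-Cat and at 9.59, 9.85 and 9.79 in DLD-1α-Cat. Every DLD-1Δα-Cat array was lower, by little. The difference was -0.34 (SE 0.113, unadjusted 95% interval -0.60 to -0.07, limma adjusted p = 0.145). Set 222712_s_at read 7.71, 7.58 and 7.95 against 8.06, 8.22 and 8.39, again without overlap, a difference of -0.48 (adjusted p = 0.158 among all probe sets). Both sets were lower in each of the 3 same-numbered pairs of arrays. The gene stayed between -0.28 and -0.41 in the 6 runs without an array.

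MUC20, a membrane mucin known to restrain signalling of the receptor kinase MET, was the one member whose probe sets disagreed in sign while all read above the median of all probe sets. The brightest, 226622_at, stood at 10.90, 11.40 and 11.13 in DLD-1Δα-Cat and at 11.13, 11.68 and 11.45 in DLD-1α-Cat. The difference was -0.27 (SE 0.181, interval -0.70 to 0.15, limma adjusted p = 0.425). Set 231941_s_at read 10.12, 10.62 and 10.43 against 10.50, 10.93 and 10.80, a difference of -0.35. On both sets the groups overlapped, yet in each subclone replicate 1 was lowest and replicate 2 highest, and each same-numbered pair was lower in DLD-1Δα-Cat, by 0.23 to 0.38. Set 230043_at read 8.51, 9.36 and 8.97 against 7.93, 9.16 and 8.67, higher in each pair, with a difference of 0.36. Set 243774_at read 6.35, 7.10 and 6.64 against 6.75, 6.77 and 7.02 and overlapped. With the replicate number as a block the gene's adjusted p was 0.113 at its brightest set, and no MUC20 set passed among all probe sets (0.138 to 0.684). The RefSeq table lists a pseudogene of MUC20 on the same chromosome, and how far its transcripts bind these probes was not tested.

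MUC5AC is the gel-forming mucin of stomach and airway surfaces, which colorectal tumours can also make. It was the one gel-forming member above the median level of all genes. Set 214385_s_at stood at 8.94, 9.80 and 9.49 in DLD-1Δα-Cat and at 8.62, 9.39 and 9.03 in DLD-1α-Cat. The groups overlapped, but here too replicate 1 was lowest and replicate 2 highest in both subclones, and each pair was higher in DLD-1Δα-Cat, by 0.32, 0.41 and 0.46. The difference was 0.40 (SE 0.263, interval -0.22 to 1.01, limma adjusted p = 0.427; with the replicate number as a block 0.0581). The other 3 sets overlapped as well: 214303_x_at differed by 0.20, 217182_at by -0.12 and 217187_at by -0.08. The mean of the 4 sets differed by 0.10 (adjusted p = 0.778). Over all 28 mucin probe sets, 6 were higher in every pair and 7 lower in every pair, beside 19.5% and 24.3% of all probe sets.

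**Figure D3:**
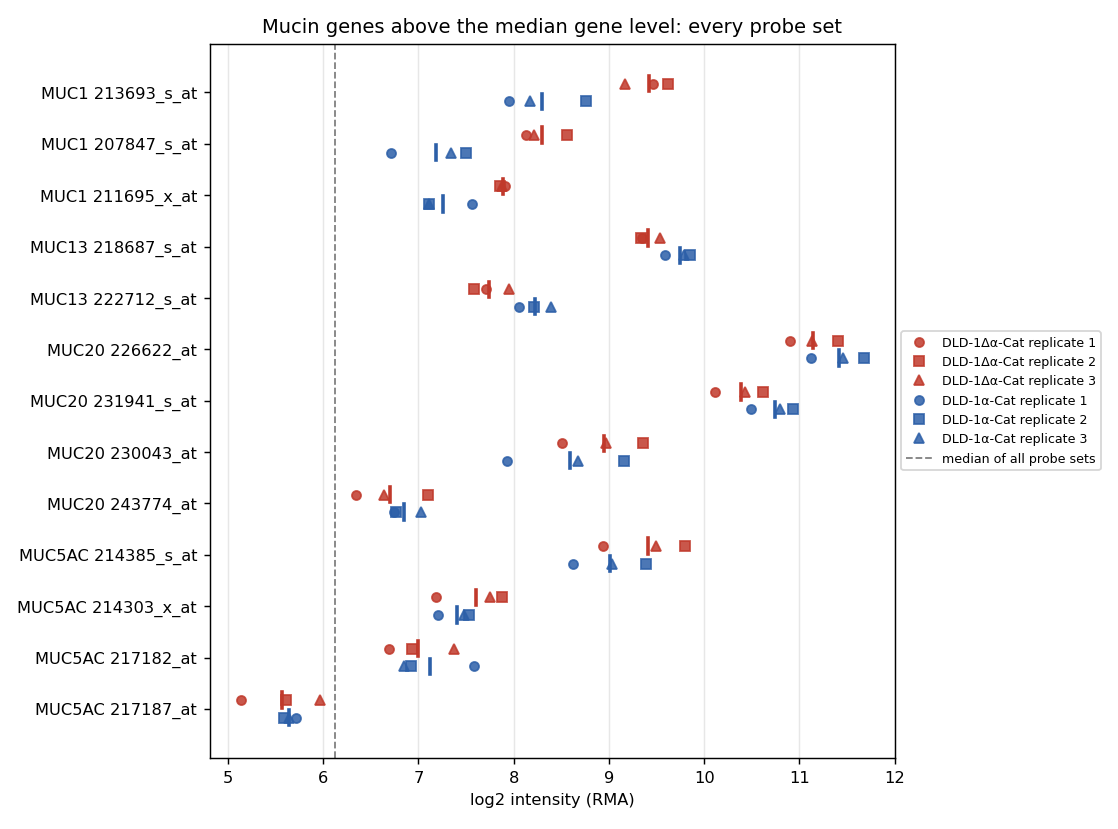
Log2 intensity (horizontal axis) of every probe set of MUC1, MUC13, MUC20 and MUC5AC (rows) on the 6 arrays. Red marks are DLD-1Δα-Cat, blue marks DLD-1α-Cat, the shape gives the replicate number, the short bar the group mean and the dashed line the median of all probe sets. The colours are apart for the 3 MUC1 and 2 MUC13 sets and overlap for MUC20 and MUC5AC, where circles lie left of squares within each colour on the sets 226622_at, 231941_s_at, 230043_at and 214385_s_at.

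The remaining gel-forming mucins read dim in both subclones. MUC2 had 1 probe set, which stood at 4.88, 4.95 and 4.86 in DLD-1Δα-Cat and at 5.44, 4.66 and 5.06 in DLD-1α-Cat. Its difference was -0.16 (interval -0.59 to 0.28, limma adjusted p = 0.665). MUC5B, a gel-forming mucin of the airways and of salivary glands, read 5.49, 5.68 and 5.58 against 6.15, 5.65 and 5.80 at its brighter set, a difference of -0.28 (adjusted p = 0.313). MUC6, made by gastric glands, read 5.96, 5.97 and 6.04 against 6.23, 5.87 and 6.16, a difference of -0.10 (adjusted p = 0.675). On these sets of all 3 genes the groups overlapped and the highest array was replicate 1 of DLD-1α-Cat. The dimmer sets overlapped too: 213432_at of MUC5B differed by 0.09 and 1565666_s_at of MUC6 by -0.22. On 213432_at the highest array was replicate 1 of DLD-1Δα-Cat. For comparison, the median level of the fibroblast, endothelial and leukocyte markers was 4.48, 5.97 and 4.58. No detection calls were used here, so whether these mucins are present at a low level or not at all cannot be told from these values.

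MUC12, MUC17 and MUC4 were membrane mucins in the dim range. MUC12, of the colonic surface, stood at 5.02, 4.83 and 5.12 in DLD-1Δα-Cat and 5.20, 5.15 and 5.38 in DLD-1α-Cat at its brighter set. The groups did not overlap, with a difference of -0.25 (interval -0.53 to 0.02, limma adjusted p = 0.279). On the other set of MUC12, 231814_at, they overlapped, with a difference of -0.10. MUC17, of the brush border of enterocytes, read 4.28, 4.38 and 4.38 against 4.85, 4.43 and 4.09, a difference of -0.11 (adjusted p = 0.762). Its other set, 232407_at, differed by -0.15, and the groups overlapped on both. MUC4, a membrane mucin that binds the receptor ERBB2, was read by 6 probe sets with means between 3.03 and 6.21. Its brightest, 235055_x_at, read 6.08, 6.04 and 6.32 against 6.73, 5.98 and 6.11, a difference of -0.13 (adjusted p = 0.743). Of the other 5 sets 4 were negative, and 217109_at stood at 0.18. One set, 204895_x_at, did not overlap between the subclones (-0.23, adjusted p = 0.374 among all probe sets).

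One array was often the highest among dim mucins. Of the 15 mucin probe sets below the median of all probe sets, replicate 1 of DLD-1α-Cat was the highest array in 9 (60%, beside 36.6% of all such probe sets). Without it 11 of these 15 had negative differences, against 13 with all arrays, and their median moved from -0.11 to -0.04. Read per gene at the brightest set, MUC2, MUC4 and MUC17 turned positive without it, to 0.04, 0.10 and 0.08. MUC5B (-0.14), MUC6 (-0.02), MUC12, MUC13 and MUC20 stayed negative, so that 5 of 10 genes were negative in place of 8.

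**Figure D4:**
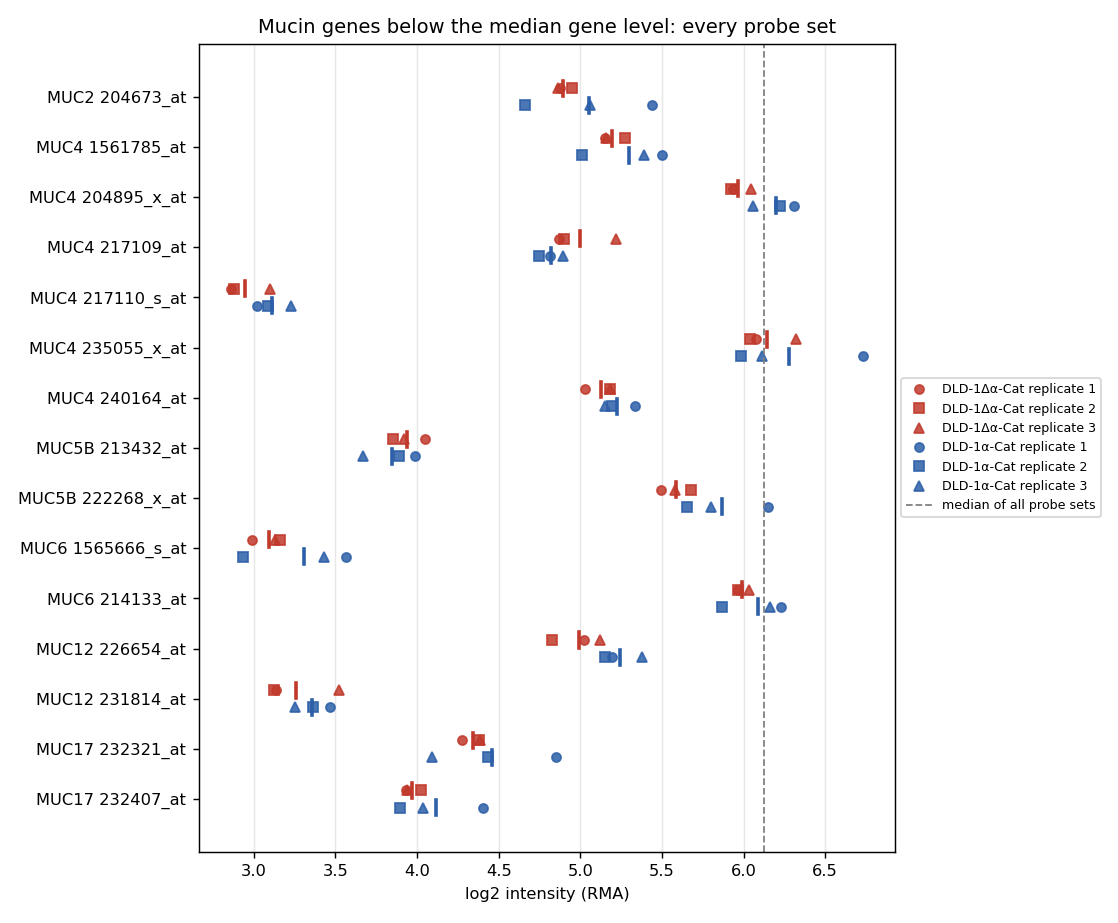
Log2 intensity (horizontal axis) of every probe set of MUC2, MUC4, MUC5B, MUC6, MUC12 and MUC17 (rows) on the 6 arrays, with colours, shapes and bars for subclone, replicate and group mean, and the median of all probe sets dashed. Replicate 1 of DLD-1α-Cat, the blue circle, is the rightmost mark in most rows, and the subclones are apart only for 204895_x_at of MUC4 and 226654_at of MUC12.

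Several members lie side by side in the genome. In the gene order of RefSeq (GRCh38.p14, used for order only), MUC6, MUC2, MUC5AC and MUC5B follow each other on chromosome 11 with LINC02688 among them, MUC20 and MUC4 are neighbours on chromosome 3, and MUC12 and MUC17 lie with MUC3A and MUC12-AS1 on chromosome 7. MUC5AC differed by 0.40 while its neighbours MUC2 and MUC5B stood at -0.16 and -0.28. MUC1, on chromosome 1, lay between TRIM46 (-0.33, limma adjusted p = 0.254) and the thrombospondin gene THBS3 (0.54, adjusted p = 0.288, with the replicate number as a block 0.0388). Of the 32 different tested genes within 3 places of a member, 3 rose and 0 fell, with a median of -0.06, beside 3.84% higher and 1.67% lower of all genes. They were TNK2-AS1, 2 places from MUC4 (0.91, adjusted p = 0.00446), and TOLLIP-DT (0.83, adjusted p = 0.0146) and the kinase BRSK2 (0.68, adjusted p = 0.0104), 2 and 3 places from MUC5B. TNK2 (0.21), between MUC4 and TNK2-AS1, and TOLLIP (0.10), next to MUC5B, did not pass (adjusted p = 0.491 and 0.784). TNK2-AS1, TOLLIP-DT and BRSK2 were not called with the β-actin covariate (adjusted p = 0.226, 0.277 and 0.246) or without moderation (0.0563, 0.108 and 0.0590). TOLLIP-DT did not pass without replicate 2 of DLD-1Δα-Cat (adjusted p = 0.0537) or replicate 3 of DLD-1α-Cat (0.0520), nor BRSK2 without replicate 3 of DLD-1Δα-Cat (0.0525). BRSK2 was also not called after centring (adjusted p = 0.0560) or with the mean of its probe sets, which differed by 0.22 (adjusted p = 0.319). With the replicate number as a block 4 of the 32 were higher and 1 lower, beside 5.12% and 2.27% of all genes. The added ones were THBS3 and HEG1, which lies beside MUC13 (-0.89, adjusted p = 0.0283, and 0.0774 without the block).

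The genes whose profile over the 6 arrays came nearest to that of MUC1, by root mean square difference after centring each gene, were SUSD2 (0.0583), the zinc finger gene ZNF708 (0.0907) and LINC00662 (0.0957). Their differences were 1.14, 1.12 and 1.07. SUSD2, a membrane protein, read 7.25, 7.32 and 7.01 in DLD-1Δα-Cat and 5.79, 6.49 and 5.88 in DLD-1α-Cat. Like MUC1 it was lowest in replicate 1 and highest in replicate 2 of DLD-1α-Cat. Likeness over 6 arrays of 2 groups is a description only.

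Of other mucins and mucin-like glycoproteins, 12 were measured and 0 passed by limma, whether or not the variance was moderated. All genes had 5.52% called. An unadjusted p under 0.05 was found for 3 of the 12, beside 20.8% of all genes, and the median difference was -0.11. Most of the list read dim: 3 of the 12 lay above the median level of all genes. The median level of the 12 was 4.21, against 7.82 for all genes. Without detection calls, whether the dim ones are present cannot be told, so the lack of calls does not show unchanged expression. Among those above the median level of all genes, the largest difference was that of OVGP1, the oviductal glycoprotein, at -0.20 (adjusted p = 0.396). MUC3A, the membrane mucin next to MUC12, differed by -0.10 (adjusted p = 0.779).

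Genes that build and trim the O-linked sugars of mucins changed in few cases. Of 43 measured, 0 rose and 2 fell (5.52% of all genes were called in either direction), with a median of -0.07. ST6GALNAC1, which caps the first sugar with sialic acid and so makes the sialyl-Tn antigen, read 6.73, 7.08 and 6.23 in DLD-1Δα-Cat and 9.01, 9.09 and 8.95 in DLD-1α-Cat. The groups were far apart, with a difference of -2.33 (SE 0.204, limma adjusted p = 0.00130) or 5.04-fold. The gene passed in all 6 runs without an array and with the β-actin covariate (adjusted p = 0.0458), but not without moderation (0.0665). ST6GAL1, which adds sialic acid mainly to N-linked chains, differed by -0.75 (adjusted p = 0.0323) and passed in 1 of the 6 runs, that without replicate 1 of DLD-1Δα-Cat. With the mean of its 3 probe sets it differed by -0.24 (adjusted p = 0.196). ST6GAL1 also did not pass with the β-actin covariate (adjusted p = 0.349) or without moderation (0.153). No member of the GALNT family, which starts the chains, passed. A block for the replicate number gave 3 higher and 3 lower, beside 7.39% of all genes (5.12% higher and 2.27% lower). The 4 added were GALNT10 (0.51), the sialyltransferase ST3GAL1 (0.53) and the fucosyltransferases FUT3 (0.50) and FUT2 (-0.43), with adjusted p from 0.0436 to 0.0448 but for ST3GAL1 at 0.0345.

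Among 16 measured regulators of goblet cells and of intestinal secretory genes 0 rose and 1 fell, beside 3.84% and 1.67% of all genes. Of the 16 differences 11 were positive and 5 negative, with a median of 0.11. An unadjusted p under 0.05 by limma was found for 8 of the 16, beside 20.8% of all genes. FOXA2, a forkhead factor that activates MUC2, read 6.83, 6.59 and 6.74 in DLD-1Δα-Cat and 7.43, 7.33 and 7.75 in DLD-1α-Cat, which gives -0.79 (SE 0.136, limma adjusted p = 0.0201). The arrays did not overlap. It did not pass without replicate 2 or 3 of DLD-1Δα-Cat or replicate 3 of DLD-1α-Cat (adjusted p = 0.0870, 0.0708 and 0.0568), and with the β-actin covariate it differed by -0.42 (0.516). The block gave 2 higher and 1 lower, beside 5.12% and 2.27% of all genes, the added ones being KLF4 (0.61, adjusted p = 0.0312) and ELF3 (0.64, adjusted p = 0.0368), both epithelial differentiation factors.

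The list of mucus packaging and secreted partners, which also held CFTR, SLC12A2, MARCKS and PDIA3, went both ways. Of 27 measured, 3 were higher and 1 lower, beside 3.84% and 1.67% of all genes. AGR3, a disulphide isomerase and relative of the MUC2-binding AGR2, read 7.34, 6.77 and 7.20 in DLD-1Δα-Cat and 4.06, 5.23 and 4.47 in DLD-1α-Cat, which gives 2.51 (SE 0.295, limma adjusted p = 0.00453). AGR2 itself differed by 0.17 (adjusted p = 0.357). ZG16, a lectin of goblet cells, read 6.35, 6.51 and 6.55 against 7.62, 7.21 and 7.50 and fell by 0.97 (adjusted p = 0.00785). AGR3 and ZG16 passed in all 6 runs without an array, but not with the β-actin covariate (adjusted p = 0.216 and 0.301) or without moderation (0.0997 and 0.0894). The intelectin ITLN1 (1.09, adjusted p = 0.0416) and the transglutaminase TGM3 (0.67, adjusted p = 0.0443) each passed in 1 of those runs, without replicate 2 of DLD-1Δα-Cat and without replicate 1 of DLD-1α-Cat. AGR3 and ITLN1 averaged 5.84 and 5.81 over all arrays, under the median of all probe sets (6.12). The filter on dim sets left both out. Without detection calls, whether AGR3 is present in DLD-1α-Cat cannot be told. The block gave 4 higher and 1 lower, beside 5.12% and 2.27% of all genes, the added one being the trefoil peptide TFF2 (0.90, adjusted p = 0.0154). Of the proteins released with mucus in the colon, FCGBP (0.31, adjusted p = 0.213) and CLCA1 (-0.01, adjusted p = 0.977) did not pass.

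Of 24 proteins that cut membrane mucins or signal with them, 0 rose and 1 fell, beside 3.84% and 1.67% of all genes. LGALS1, galectin 1, read 8.73, 8.16 and 8.04 in DLD-1Δα-Cat and 10.72, 9.93 and 10.23 in DLD-1α-Cat, which gives -1.98 (SE 0.245, limma adjusted p = 0.00552) or 3.95-fold. It passed in all 6 runs without an array, but not with the β-actin covariate (adjusted p = 0.236) or without moderation (0.102). The remaining 23, among them the sheddases ADAM10 and ADAM17, galectin 3 (LGALS3) and the kinases ERBB2 and MET, did not pass.

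**Figure D5:**
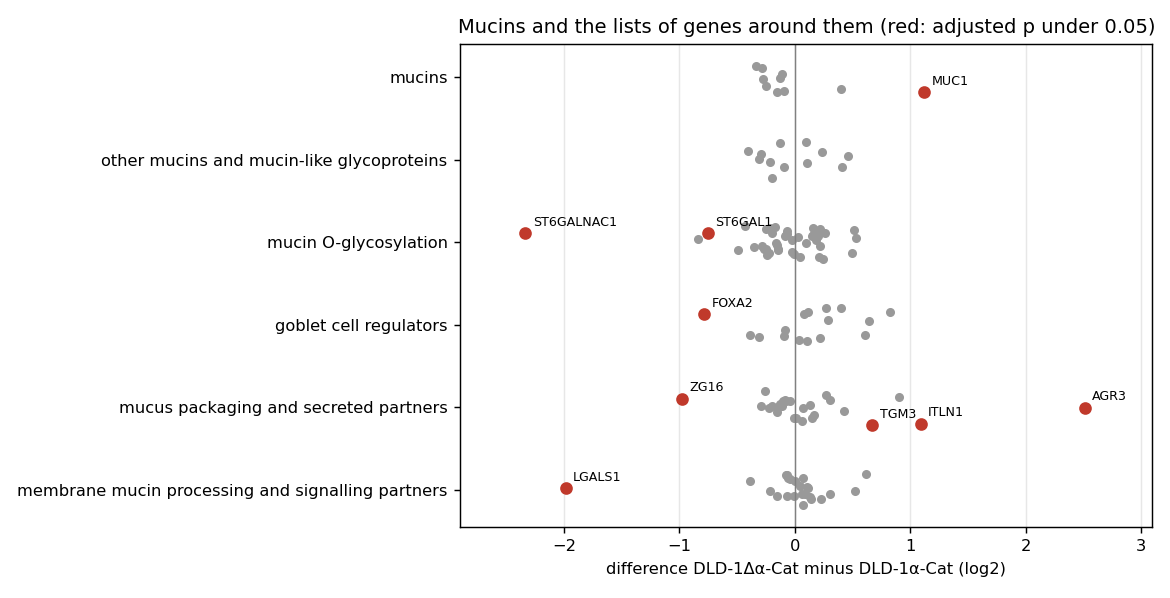
Difference between the subclones (horizontal axis, log2) for each measured gene of the mucins and of the 5 lists around them (rows, with points spread vertically for legibility). Red, named points are the 9 genes with a limma adjusted p under 0.05 over all genes: MUC1, TGM3, ITLN1 and AGR3 to the right of 0 and ST6GALNAC1, LGALS1, ZG16, FOXA2 and ST6GAL1 to the left.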

How the data were processed

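Total RNA of 6 samples was hybridised to Affymetrix arrays, 1 per sample. The submitters' processing notes name RMA and Affymetrix Expression Console, with no version in the sources used here, for the log2 intensities that the authors deposited. RMA brings all arrays to the same distribution, which hides any shift shared by every transcript. Groups and replicate numbers come from the titles.

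From 54675 probe sets 62 controls were left out. The 2016 platform annotation gave 1 symbol for 41091, several for 1801 and none for 11721; 0 of those with several held a mucin member. Each of 19775 genes was read at its brightest probe set, without a filter. Both groups entered 1 model in limma 3.58.1 (R 4.3.3), with Benjamini-Hochberg adjustment at 0.05, over genes and again over all probe sets. Members and lists were chosen with earlier results of these data known. Named were the 10 members, CTNNA1, up to 3 called genes per list with the smallest p (with none called, the most different of those above the median level), and the neighbours and 3 nearest profiles of called members. Other list members and neighbours were named after their values were seen.

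After subtracting group means, arrays of equal number correlated at 0.225, 0.376 and 0.122 over all genes, each above 0.1, so the numbers were taken to pair the arrays, from the data and not from a stated design. In simulated data for these 19775 genes, the model found 14%, 70%, 96% and 100% of changes of 0.5, 1, 2 and 4, with 11 wrong calls among 151. The simulation changed 50 genes per size, fewer in all than the 1091 called in the data. It drew the arrays independently, without pairing. Its rates therefore need not hold for the real fit. Alternatives were a second quantile normalization, centring, a filter on dim sets, the mean of probe sets, other variance models, array weights, the replicate block, the β-actin ratio and leaving out each array.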

Additional observations from a re-analysis of the deposited data

How the results depend on the processing

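MUC1 stayed positive under all 15 alternatives. The count of mucin genes called higher went from 1 to 0 without moderation and with the β-actin covariate, and was 0 to 1 without single arrays. Mucin probe sets called higher went from 0 to 2 (second quantile normalization, centring, trend with robust estimation, replicate block) or 3 (without dim sets, array weights). Without single arrays they were 0 to 2. The filter on dim sets left 13 mucin sets. Of all 54613 probe sets 940 were called higher as reported, and 919, 932, 1456 and 935 in the settings with 2, in that order. Array weights gave 1496, the filter on dim sets 1030 of 27307, and the runs without single arrays 291 to 1065. No mucin was called lower under any setting. Of dim members, MUC2, MUC4 and MUC17 turned to 0.036, 0.098 and 0.084 without replicate 1 of DLD-1α-Cat (their lowest values without single arrays were -0.35, -0.28 and -0.30), MUC17 to 0.050 with array weights, and MUC6 and MUC12 to 0.041 and 0.022 with the β-actin covariate.

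The count of 2 O-glycosylation genes became 4 without dim sets, 6 with the replicate block, 1 with the covariate or the mean of probe sets and 0 without moderation (1 to 2 without single arrays). The 1 goblet regulator became 2 with quantile normalization, 3 without dim sets, with the block or the mean of probe sets, 4 with array weights and 5 with trend. In each of these settings 1 was called lower and the added ones higher. The count became 0 without moderation or with the covariate (0 to 2 without single arrays). All genes called rose as well, from 1091 of 19775 to 1175 with quantile normalization, 1155 with the mean of probe sets and 1461 with the block. They were 1622 with array weights, 1714 with trend and 1230 of 12608 tested without dim sets. That filter left 34 O-glycosylation genes, 14 goblet regulators and 21 mucus partners, without AGR3 and ITLN1. The 4 mucus partners and the 1 membrane mucin partner became 0 without moderation and with the covariate (2 to 3 and 1 without single arrays). The mucus partners were 3 with quantile normalization, centring or without dim sets, 5 with the block or the mean of probe sets and 6 with trend. CTNNA1 differed by -1.56 with the covariate (adjusted p = 0.0667).

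Over all genes the 1091 calls became 115 without moderation, 84 with the covariate, 1714 with trend and 442 to 1202 without single arrays. Centring moved the median of all genes by -0.14, and the share of higher calls from 69.7% to 51.3%; second quantile normalization gave 59.6%, and no moderation 58.3%. The replicate block changed no call of a mucin gene. The cause of these changes was not tested. Dim mucins are limited by the lack of detection calls.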

Other observations

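Some goblet cell genes missed the threshold of 0.05 and were picked out after their values were seen. SPDEF, a transcription factor of goblet cell maturation, averaged 8.46 in DLD-1Δα-Cat against 7.64 (difference 0.83, limma adjusted p = 0.0534, with the replicate number as a block 0.0642). CREB3L4 differed by 0.40 (adjusted p = 0.0528) and the trefoil peptides TFF3 by 0.43 (adjusted p = 0.0562) and TFF2 by 0.90 (adjusted p = 0.0759, with the block 0.0154). Their relatives had negative differences and did not pass: the trefoil peptide TFF1 stood at -0.29 (adjusted p = 0.36) and CREB3L1 at -0.31 (adjusted p = 0.232). ATOH1, the factor that starts the secretory lineage, differed by -0.39 (adjusted p = 0.127).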
